A study of Mus musculus with 10 samples.

Results

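Cluster 3 was a group of cells in the annotation that the authors deposited for single cells of mouse colonic crypts. Its members were taken by that number alone, and 275 of the 3065 kept colonic cells carried it, out of 25204 kept cells in the whole series. Of these cells, 274 came from the library of normal mice and 1 came from the library of mice treated with DSS (dextran sulfate sodium, a polymer given in drinking water that damages the colonic epithelium). The authors added only the word other to this number, so its cell type is described here from marker genes.

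The series studied how intestinal epithelium regenerates after injury, in organoids and in tissue, and these colonic libraries were its normal and its injured colon. Each condition was 1 droplet library of polyadenylated RNA read at the 3′ end, with 1132 kept cells in the normal and 1933 in the DSS library. The study used C57BL/6 mice and Lgr5-EGFP-IRES-creERT2 mice, in which a reporter and an inducible Cre are driven from the stem cell gene Lgr5, and neither the strain of these libraries, nor their number of animals, nor the stretch of colon sampled was given in the sources used here. With 1 library a condition no difference has a replicate check, so no p-value is given; every interval below is an exact 95% interval and covers counting error only.

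The 2 libraries also differed in sex-linked transcripts. The X-inactivation transcript Xist was at 477 CPM (the unique molecular identifiers or UMIs of a gene, which count its RNA molecules, scaled to 1000000 UMIs of the cells summed) in the normal and at 0.0926 CPM in the DSS library, while the Y-linked Ddx3y was at 0 and 33.7 CPM and Eif2s3y at 0 and 64.8 CPM. The study's methods state female mice for its colitis model. Between these libraries sex and treatment cannot be told apart. The normal library held 19906845 UMIs in kept cells with a median of 18374 a cell, and the DSS library 32397122 with a median of 16051. No barcode of cluster 3 occurred in both libraries, against 2 barcodes among all kept cells.

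The colon is lined by a single epithelial sheet folded into crypts. Stem cells at the crypt base divide, and their daughters move upward and become goblet cells, which secrete mucus, hormone-secreting enteroendocrine cells, chemosensory tuft cells, or colonocytes, the absorptive cells that take up salt and water and make up most of the surface. Colonocytes change along the way up, from dividing progenitors to mature surface cells, and also along the length of the colon, where the posterior HOX proteins mark the distal end. Interferons, which cells release upon sensing viruses or bacteria, switch on a shared set of antiviral genes in epithelial and other cells alike.

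The share of cluster 3 differed between the libraries more than counting error allows. It made up 24.2% of kept cells in the normal library (95% interval 21.7 to 26.8) and 0.0517% in the DSS library (0.00131 to 0.288). Among cells of the clusters in which at most 50% of cells held a UMI of Ptprc, the leukocyte antigen CD45, it was 30.0% of 913 normal cells (27.1 to 33.1) and 0.0672% of 1488 DSS cells (0.00170 to 0.374). Cluster 3 was not alone in this: 10 of the 25 clusters had at least 95% of their cells from 1 library. Cluster 12 held 93 normal and 1 DSS cell and cluster 14 held 77 and 1, whereas cluster 7 held 8 and 139 and cluster 9 held 2 and 108. How the colonic cells were clustered, and whether the libraries were aligned first, was not given in the sources used here, so a missing cell state and a shift of the same cells into another number cannot be told apart. All results on cluster 3 below are therefore those of the normal library, except where the DSS cell is named.

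**Figure D1:**
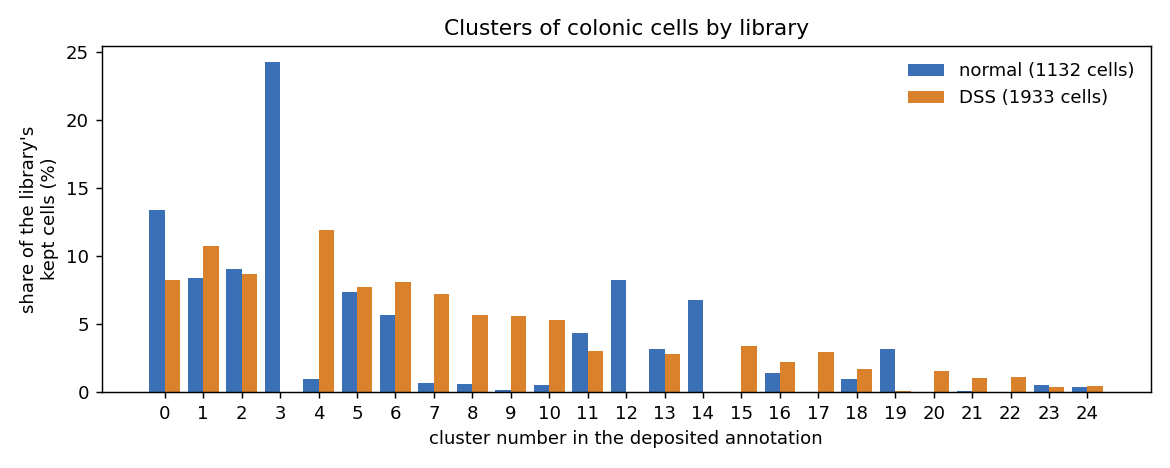
Share of each library's kept cells (vertical axis, percent) in each numbered cluster (horizontal axis), with blue bars for the normal library of 1132 cells and orange bars for the DSS library of 1933 cells. Cluster 3 is the tallest blue bar at 24.2%, and its DSS share of 0.0517% is too small to see.

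The cells of cluster 3 were deep. They held 6030150 UMIs in all, with a median of 22335 UMIs a cell (range 1063 to 64827), 4081 genes and 12.4% mitochondrial UMIs. The other normal cells of clusters with at most 50% Ptprc cells had a median of 21439 UMIs. Some members were shallow, with 28 cells below 1500 genes, 32 cells below 5000 UMIs and the lowest at 628 genes. A Ptprc UMI was found in 2 cells, and a UMI of the division genes Mki67 or Top2a in 26 cells, which is 9.49%.

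By its markers cluster 3 was mature colonocyte-like. All 8 pan-epithelial genes were present, with a summed level of 24471 CPM against 14330 CPM in the other normal cells of low-Ptprc clusters, called the other cells from here on. The list of mature colonocyte genes summed to 43373 CPM against 18841 CPM, the third highest of 14 normal clusters after clusters 12 (82439 CPM) and 6 (55846 CPM). The gene Car1 alone made up 31540 CPM of the sum in cluster 6, against 6259 CPM in cluster 3 and 1772 CPM in cluster 12. Of the 17 list members with enough counts, 9 were at least 2-fold higher in cluster 3 than in the other cells and 1 was at least 2-fold lower, with a median log2 ratio of 1.44. That median was 0.80 with the mean of per-cell CPM, 0.83 after thinning each cell to 5000 UMIs and 2.09 with cluster 12 left out of the other cells. Over all 7302 genes counted, 5.14% were at least 2-fold higher and 14% at least 2-fold lower, with a median of -0.14. The clusters were made from these same genes, so these ratios describe the cluster and test nothing.

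Lypd8 (ENSMUSG00000013643, GRCm38 chr11:58379043-58390728), a secreted protein of the colonic surface that keeps flagellated bacteria off the epithelium, was at 20107 CPM (19994 to 20220) in cluster 3 and at 5555 CPM in the other cells, 3.62-fold higher (3.59 to 3.65). Its transcript was in 100.0% of the cells, but also in 60.5% of cells of the normal leukocyte-rich clusters 0 and 11, whose median depth was 3544 UMIs, where free RNA, doublets and mixed clusters were not told apart. Guca2a, the precursor of the gut hormone guanylin, was at 4660 against 1448 CPM, 3.22-fold higher (3.16 to 3.28). Krt20, a keratin of differentiated gut epithelium, stood at 1269 and 372 CPM in the same order. The chloride and bicarbonate exchanger Slc26a3, the chief route of chloride uptake in the colon, was 4.92-fold higher (4.61 to 5.25), at 514 against 104 CPM, and was found in 92.0% of the cells against 3.0% of the leukocyte-rich cells. The sodium and proton exchanger Slc9a3 was at 132 and 32.4 CPM. Both of these exchangers serve salt uptake, and also higher in cluster 3 were Muc3, a membrane mucin of the brush border (2600 against 923 CPM), and Mxd1, a MYC antagonist that marks cells leaving the cycle (594 against 151 CPM).

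Not every colonocyte gene followed. The water channel Aqp8 was lower in cluster 3 than in the other cells, at 48.3 against 161 CPM. Most Aqp8 of the other cells lay in cluster 12, against which cluster 3 had a log2 ratio of -5.96, so this direction rests on that cluster. Car1, a carbonic anhydrase that is among the most abundant colonocyte transcripts, was level at 6259 and 6323 CPM. The sodium channel subunit Scnn1b was listed at 0 UMIs, and the colonic channel subunit Scnn1a was at 80.1 CPM against 29.8 CPM. Among 20 counted genes of ion and water transport, 7 were higher and 7 lower by at least 2-fold, where 5.14% and 14% of all genes were. Those lower included the chloride cotransporter Slc12a2 (5.47 against 141 CPM) and the potassium channel subunit Kcne3 (54.2 against 212 CPM).

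Marker lists of other cell types were low in cluster 3, with the exception of the neutrophil list. All 15 counted goblet genes were at least 2-fold lower, with a median log2 ratio of -4.82 and a summed level of 667 against 16641 CPM. Muc2, the gel-forming mucin of goblet cells, was at 15.9 CPM in cluster 3 and 2442 CPM in the other cells, and 31.0% of cluster 3 cells held a UMI of it against 18% of the shallower leukocyte-rich cells. The deep crypt secretory list was at 103 against 13525 CPM, the enteroendocrine list at 2.65 against 823 CPM with 7 of its 12 genes at 0, and the tuft list at 1.33 CPM with 4 of 10 genes at 0. Of 10 counted stem and crypt base genes 7 were lower, and the stem cell receptor Lgr5 had 1 UMI in all 274 cells. Division genes were lower too, 13 of 14 for S phase and 8 of 9 for G2 and M phase, where the proliferation antigen Mki67 had 13 UMIs. The pan-leukocyte list summed to 2.49 CPM and the T and NK, B and plasma, macrophage, stromal and red cell lists each to at most 2.16 CPM, while the pan-leukocyte list was at 5731 CPM in the normal leukocyte-rich clusters. The neutrophil list summed to 51.9 CPM against 17.6 CPM in the other cells, second of the 14 clusters after cluster 12 at 237 CPM. Nearly all of it was Ly6g, a surface antigen of neutrophils and a close copy of Ly6a and Ly6c1, which was at 51.7 against 17.0 CPM and found in 34.3% of cluster 3 cells and 0.5% of leukocyte-rich cells. The calprotectin genes S100a8 and S100a9 and 4 other genes of the list were at 0 UMIs in cluster 3.

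**Figure D2:**
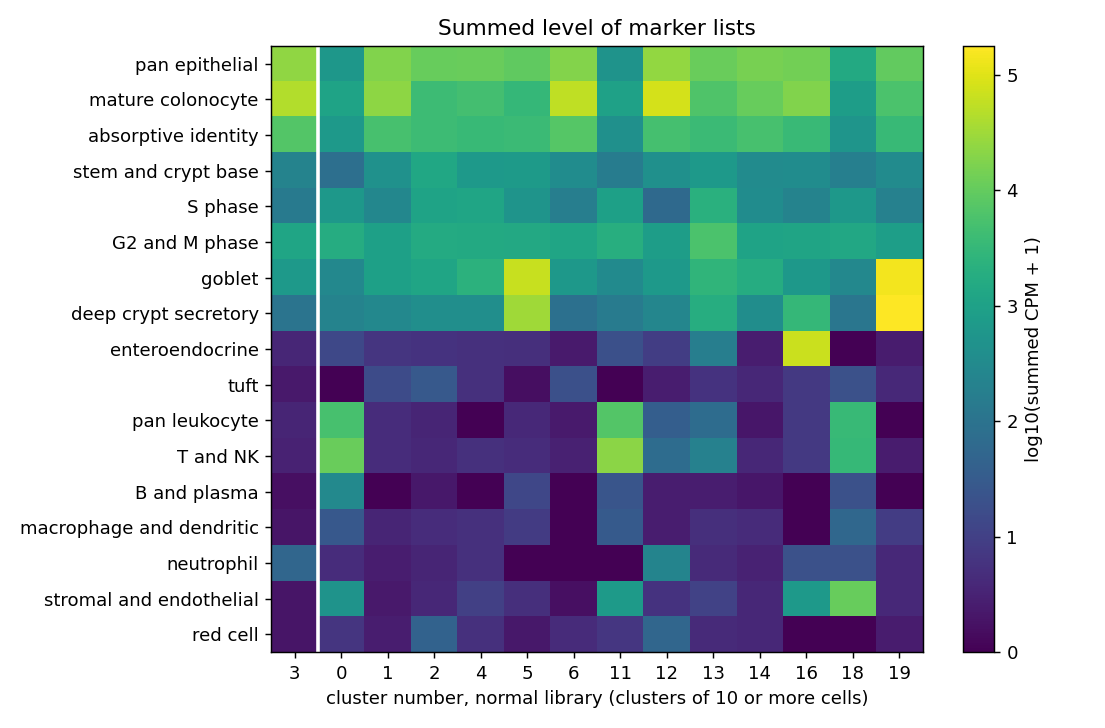
Summed level of each fixed marker list (rows) in each normal cluster of 10 or more cells (columns, cluster 3 first), as log10 of the summed CPM + 1 on the color scale. Cluster 3 is bright for the pan-epithelial list (24471 CPM) and the mature colonocyte list (43373 CPM) and dark for the enteroendocrine (2.65 CPM), tuft (1.33 CPM) and pan-leukocyte (2.49 CPM) lists, with the neutrophil list between them at 51.9 CPM.

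The genes that led cluster 3 by fold were of several kinds. Ranked in the normal library, the first were Ly6c1, Phf11b, Ifit3, Ano1, Npb, Ly6a, Ggh, Trim30a, Pmp22 and Aqp4. Ly6c1, a small surface protein anchored by a lipid, was 11.3-fold higher than in the other cells (8.58 to 15.1), at 53.6 against 4.74 CPM. Its relative Ly6a, which encodes the surface antigen SCA1 and is induced by interferons and in injured gut epithelium, was at 2765 against 496 CPM, 5.58-fold higher (5.42 to 5.74), and was higher in cluster 3 than in any other normal cluster of 10 or more cells. Normal cluster 12 was close at 2416 CPM, while normal clusters 14 and 6 were at 865 and 621 CPM. In DSS clusters 9, 20 and 7 Ly6a was at 2379, 2042 and 1811 CPM, and in DSS cluster 6 at 398 CPM. The Ly6 genes are close copies, and reads could be split among them. Phf11b, an interferon-inducible gene, was 8.12-fold higher (6.87 to 9.64), and Ifit3, which encodes an antiviral RNA-binding protein, 8.01-fold (6.28 to 10.3). Phf11b too has near copies.

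A calcium-activated chloride channel, Ano1, was 6.14-fold higher (5.29 to 7.16), at 110 against 18 CPM. It was found in 71.2% of cluster 3 cells and 0 of 200 cells of the leukocyte-rich clusters, which were shallower, at a median of 3544 UMIs. The water channel Aqp4, known best from brain astrocytes, was at 990 CPM (965 to 1015) against 193 CPM, and 82.6% of cells thinned to 5000 UMIs held it against 27.1% of the other cells. Ggh, a hydrolase of folate polyglutamates, was 5.42-fold higher (5.09 to 5.78) and Pmp22, a tetraspan membrane protein, 5.31-fold (5.07 to 5.57). The carrier of citrate and succinate Slc13a2 was at 331 against 74.0 CPM. Klf4, a transcription factor of differentiating gut epithelium, was higher in cluster 3 than in any other normal cluster of 10 or more cells, at 1769 CPM against 734 CPM in the other cells.

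Among the genes lowest in cluster 3 were those of the secretory lineage. Mptx1, a pentraxin of deep crypt cells, was at 48.9 against 11066 CPM, and Reg4, a lectin of deep crypt secretory cells, was at 3 UMIs or 0.497 CPM (0.103 to 1.45) against 451 CPM. The unfolded protein response, the program of secretory cells that widens protein folding in the endoplasmic reticulum, had 10 of 18 genes lower by at least 2-fold and 0 higher, with a median of -1.13, the chaperone Hspa5 being at 692 against 1439 CPM. These counts rest on dividing by total UMIs. With median-of-ratios scaling the median of all genes moved from -0.14 to 0.16, and 10.1% of genes were at least 2-fold higher and 8.76% lower, against 5.14% and 14%. The ratios above are to be read against the first of these medians. The other cells included the goblet-rich clusters 5 and 19, where the unfolded protein response list summed to 11059 and 10404 CPM. Against cluster 6, 0 of its 17 counted genes were past 2-fold in either direction, with a median of -0.23 against 0.00 for all genes. Of 9 counted goblet genes 3 were higher than in cluster 6 and 0 lower, where 4.64% and 3.15% of all genes were.

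The regenerative and fetal-like list, genes of injured gut that the study is about, summed to 15394 CPM against 6721 CPM in the other cells, second of the 14 normal clusters. In the DSS library the list summed to 17369 CPM in cluster 7 and 18199 CPM in cluster 9. It was at 12195 CPM in DSS cluster 10 and 6917 CPM in DSS cluster 6. Of 12 counted genes 9 were above the other cells, with a median log2 ratio of 0.86. At least 2-fold higher were 5 (Ly6a, Anxa1, Anxa3, Ly6e and S100a6) and at least 2-fold lower were 3, where 5.14% and 14% of all genes were. Krt7 passed the minimum for counting and was more than 2-fold lower, at 17.9 against 165 CPM. Clu, a chaperone that marks revival stem cells, was below that minimum at 1.82 against 7.04 CPM, and Basp1, Spp1 and Msln were at 0 UMIs. Of the 5, Ly6a and Ly6e are also known as interferon-inducible genes. Of 6 counted chemokine and cytokine genes, 2 were higher: Il18, an epithelial cytokine released by inflammasomes, at 211 against 60.7 CPM, and the interleukin-1 antagonist Il1rn at 80.3 against 24.9 CPM.

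Interferon-response genes also stood high, with the summed list the third highest of the 14 normal clusters. Of 24 counted members, 17 were at least 2-fold higher in cluster 3 than in the other cells and 1 was lower, with a median log2 ratio of 1.43 where that of all genes was -0.14. Isg15 (ENSMUSG00000035692, GRCm38 chr4:156199424-156200818), a ubiquitin-like protein joined to others during antiviral defense, was at 872 CPM (849 to 896) against 229 CPM, a 3.81-fold difference (3.65 to 3.99). A UMI of it was in 95.3% of cells, and its level was 139 and 350 CPM in the normal leukocyte-rich clusters 0 and 11. Oasl2, of the family that senses double-stranded RNA, was at 415 against 115 CPM, and Irf7, the transcription factor that amplifies interferon production, at 520 against 182 CPM. The membrane tether Bst2, which holds virus particles at the cell surface, was at 404 against 155 CPM and higher in cluster 3 than in any other normal cluster of 10 or more cells.

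The other counted members did not pass 2-fold, apart from Ifitm2, of a family of membrane proteins that block virus entry, which was lower in cluster 3 at 49.3 against 264 CPM. Its relative Ifitm3 was at 238 and 214 CPM, and Ifi27, a small interferon-inducible membrane protein, at 93.5 against 111 CPM. The chemokine Cxcl10 was at 27.9 against 24.7 CPM. Genes of class I antigen presentation had 4 of 11 counted members higher and 0 lower, with a median of 0.87, among them the light chain B2m (1754 against 750 CPM) and the peptide pump Tap1 (77.1 against 25.2 CPM). The class II invariant chain Cd74, which interferon gamma can induce in epithelium, was lower at 5.97 against 32.3 CPM.

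The promoters of 3 of these genes are shown because each holds the letters that interferon-activated factors are known to bind, the paired GAAA repeat of the interferon-stimulated response element. They are the 130 bases before the RefSeq start in the GRCm38.p6 build, 5′ to 3′ on the gene's strand, with every match of GAAANNGAAA on either strand in capitals, overlapping matches merged into 1 run. Isg15 lies at chr4:156200819-156200948 on the minus strand and has 3 overlapping matches, Ifit3 at chr19:34583399-34583528 on the plus strand with 1 match on the opposite strand in the part shown, and Bst2 at chr8:71537473-71537602 on the minus strand with 2 overlapping matches.
Isg15: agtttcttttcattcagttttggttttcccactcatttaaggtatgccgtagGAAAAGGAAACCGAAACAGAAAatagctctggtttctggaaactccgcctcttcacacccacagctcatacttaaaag
Ifit3: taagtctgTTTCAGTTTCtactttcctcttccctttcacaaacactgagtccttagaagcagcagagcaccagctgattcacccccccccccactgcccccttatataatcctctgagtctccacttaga
Bst2: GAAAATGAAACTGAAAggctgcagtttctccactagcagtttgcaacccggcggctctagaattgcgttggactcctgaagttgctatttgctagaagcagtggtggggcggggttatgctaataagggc

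In the 250 bases before the start, 14 of 21 matched interferon-list genes (66.7%) held the letters GAAANNGAAA on either strand, against 3.46% of 27025 genes, or 2.98% of 32851 promoters, in the same window. None of the 18 matched mature colonocyte genes did. The letters were not in this window of Irf7, Oasl2 or Ly6c1. A match is a description of the sequence, and binding was not measured.

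Interferon genes were not evenly high in the normal colon. The summed list was 3927 CPM in cluster 3, 8966 CPM in cluster 12 and 2125 CPM in cluster 14, and between 858 CPM (cluster 1) and 2346 CPM (cluster 16) in the other low-Ptprc clusters of the normal library. In the DSS library the low-Ptprc clusters of 10 or more cells ran from 455 CPM (cluster 10) to 2685 CPM (cluster 17), below cluster 3 throughout. Clusters in which over 50% of cells held a Ptprc UMI ran from 830.3 CPM (DSS cluster 8) to 9782 CPM (DSS cluster 15). In the normal library they were at 1304 CPM in cluster 0 and 2139 CPM in cluster 11, and at 7592 CPM in the 11 cells of cluster 18. In cluster 3 the pan-leukocyte list was at 2.49 CPM and the neutrophil list, almost wholly Ly6g, at 51.9 CPM.

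**Figure D3:**
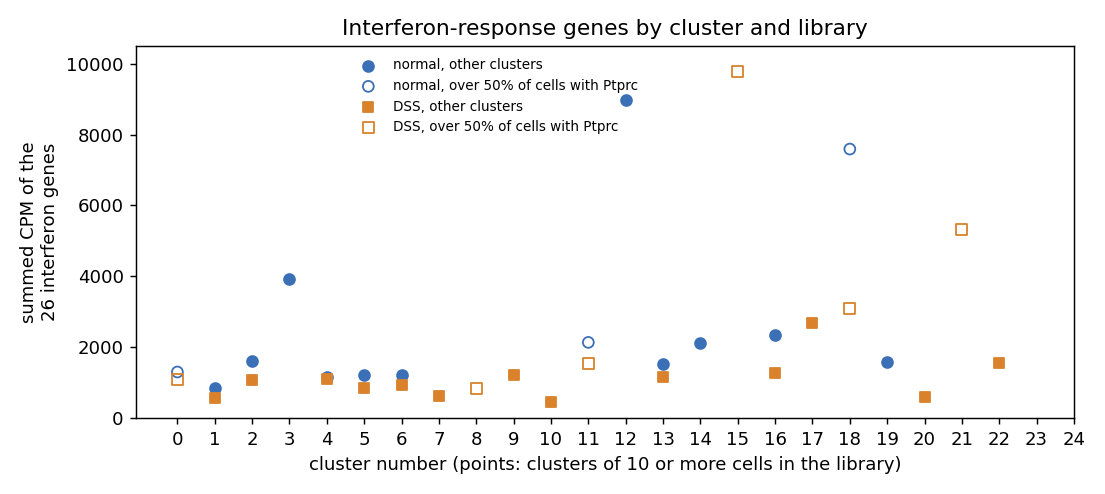
Summed CPM of the 26 interferon-response genes (vertical axis) in each cluster of 10 or more cells (horizontal axis), with blue circles for the normal library, orange squares for the DSS library and open symbols for clusters in which over 50% of cells held a Ptprc UMI. Cluster 3 stands at 3927 CPM, above every other filled symbol except cluster 12 at 8966 CPM.

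The cluster most like cluster 3 was cluster 6, which had 64 normal and 157 DSS cells. The correlation across genes of the summed log2(CPM + 1) profiles in the normal library was 0.977 with cluster 6, 0.969 with cluster 1 and 0.966 with cluster 14, where genes are not independent and the clusters share their library. Against cluster 6, 4.64% of 6703 genes were at least 2-fold higher in cluster 3 and 3.15% at least 2-fold lower, with a median log2 ratio of 0.00. Both clusters held the colonocyte program, with Krt20 at 1269 CPM in cluster 3 and 1323 CPM in cluster 6 and Krt8, a keratin of simple epithelia, at 11061 and 8871 CPM. Their depths were alike, with a median of 23255 UMIs in cluster 6. Of the genes that differed, some were nearly absent from one side and others were well expressed on both.

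Hoxb13 (ENSMUSG00000049604, GRCm38 chr11:96194316-96197447), a posterior homeobox gene that marks the distal colon and rectum, was at 187 CPM (176 to 198) in cluster 3 and at 1.35 CPM, or 2 UMIs, in cluster 6, a 139-fold ratio (38.3 to 1147). Its neighbor in function Hoxa13 was at 46.3 CPM in cluster 3 and 0 UMIs in cluster 6, at least 22.9-fold higher when the 3 counts that a count of 0 allows are set against cluster 6 as a whole. Tgm3, a transglutaminase that crosslinks proteins, was at 338 against 4.04 CPM, 83.8-fold higher (38.4 to 229). Sycn, which encodes the zymogen granule protein syncollin, was at 1257 against 35.0 CPM, 35.9-fold higher (27.4 to 48.1). Ano1 was at 110 CPM against 3 UMIs in cluster 6 (ratio 54.7, 18.6 to 266), and Aqp4 was 15.3-fold higher (12.5 to 18.9) at 990 against 64.6 CPM. Other clusters also carried some of these genes. In normal clusters 14 and 12 Sycn was at 1005 and 1493 CPM, Tgm3 at 9.45 and 976 CPM, and Aqp4 at 766 and 4.81 CPM. In the DSS library Tgm3 was at 1412 CPM in cluster 7 and Aqp4 at 855 CPM in cluster 10.

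Among the genes higher in cluster 6 were Reg3b, Car1 and several of bile acid handling. Reg3b, a secreted lectin that binds bacteria, was at 80.4 CPM in cluster 3 and 4929 CPM in cluster 6, 61.3-fold higher in cluster 6 (55.9 to 67.3), and its near copy Reg3g was at 4.64 and 489 CPM. A single cell held 66.4% of the Reg3b UMIs of cluster 3, and without it the level was 27.2 CPM and the ratio 181. For Reg3g, where a single cell held 64.3% of 28 UMIs, the level without it was 1.67 CPM and the ratio 294. The antimicrobial list as a whole had 3 of 9 counted members higher and 3 lower in cluster 3, where 4.64% and 3.15% of all genes were, with a median of 0.50. Slc51a, a subunit of the exporter of bile acids at the base of the cell, was at 36.1 against 729 CPM, and Fabp6, the bile acid binding protein, at 8.13 against 303 CPM. The bile acid importer Slc10a2 was at 8.62 against 115 CPM, and the zinc finger factor Osr2 at 5.80 against 134 CPM. Car1 was 5.04-fold higher in cluster 6 (4.97 to 5.11), at 31540 against 6259 CPM. The same side held the cytochrome Cyp2c55, at 384 against 1572 CPM.

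Interferon genes also divided these clusters. Of 23 counted members 19 were at least 2-fold higher in cluster 3 than in cluster 6 and 0 were lower, with a median of 1.57, and Isg15 was at 872 against 115 CPM, 7.58-fold (6.51 to 8.88). Ifitm3, level between cluster 3 and the other cells, was at 238 against 12.1 CPM here. The mature colonocyte list was closer, with 5 of 17 members higher, 1 lower and a median of 0.46. Genes of fat oxidation and ketogenesis had 0 of 18 members higher and 3 lower, with a median of -0.47. Of all genes, 4.64% were at least 2-fold higher in cluster 3 than in cluster 6 and 3.15% lower.

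**Figure D4:**
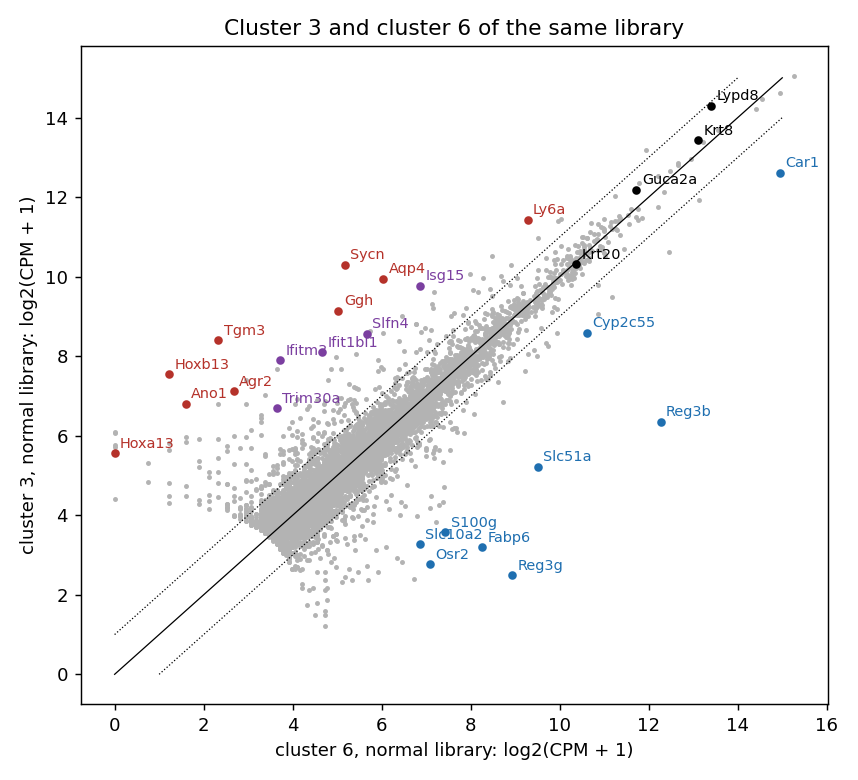
Level of each gene in cluster 6 (horizontal axis) and in cluster 3 (vertical axis) of the normal library, both as log2(CPM + 1), with the solid line at equality and dotted lines at 2-fold. Genes drawn have a mean of at least 10 CPM over both clusters, with no minimum of UMIs. Red, purple and blue name genes higher in cluster 3, interferon-inducible genes and genes higher in cluster 6, chosen after their values were seen. Hoxb13 (187 against 1.35 CPM) and Reg3b (80.4 against 4929 CPM) lie far from the line while Krt20, Krt8 and Guca2a lie near it.

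Hoxb13 varied widely over the other clusters too. In the normal library Hoxb13 was at 330 CPM in cluster 12, 166 CPM in cluster 14, 376 CPM in cluster 4 and 264 CPM in cluster 16, at 43.1 to 100.1 CPM in clusters 2, 5, 13 and 19, and at 3.30 CPM in cluster 1. In the DSS library it was at 401 CPM in cluster 7 and 377 CPM in cluster 10, at 170.0 CPM in cluster 5 and 122 CPM in cluster 13, against 3.27 CPM in cluster 6 and 32.1 CPM in cluster 9. The distal Hox list summed to 274 CPM in cluster 3, 255 CPM in cluster 14, 389 CPM in cluster 12 and 598 CPM in cluster 16, against 92.2 CPM in cluster 6 and 153 CPM in cluster 1 of the normal library. After thinning to 5000 UMIs, 49.6% of cluster 3 cells held a Hoxb13 UMI, against 25.5% of the other cells. Without thinning 76.3% of cluster 3 cells held one, against 1.5% of the shallower leukocyte-rich cells. The 65 cells of cluster 3 without one were of similar depth, with a median of 21637 UMIs against 22587 for those with one.

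Clusters 14 and 12, which like cluster 3 were almost wholly from the normal library and carried Hoxb13, lay on either side of it in the level of colonocyte genes. Of 18 mature colonocyte genes at 10 CPM or more in cluster 3, 17 were lowest in cluster 14, intermediate in cluster 3 and highest in cluster 12 (94.4%), where 24.4% of all 6675 such genes took that order. Guca2a was at 547, 4660 and 8581 CPM in clusters 14, 3 and 12, Krt20 at 25, 1269 and 2944 CPM, and Car4, a membrane-bound carbonic anhydrase of surface cells, at 36.1, 450 and 5134 CPM. Car1 alone of the 18 broke the order, at 628, 6259 and 1772 CPM. Of 24 interferon genes 16 took the same order (66.7%), with Isg15 at 166, 872 and 3242 CPM.

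The unfolded protein response ran the other way, with 14 of 17 genes falling from cluster 14 through 3 to 12 (82.4%) where 45.7% of all genes did. Cluster 12 was shallow, at a median of 5847 UMIs and 1688 genes, and its part in these orders was not tested. Against it, 27.5% of 6296 genes were at least 2-fold higher in cluster 3 and 10.2% lower, with a median of 0.30. Aqp4 was at 990 CPM against 3 UMIs in cluster 12, and the pore-forming gasdermin Gsdmc4 was at 1476 against 25.6 CPM. Higher in cluster 12 were Aqp8 (48.3 against 3060 CPM), the hydrogen peroxide producing oxidase Duox2 (20.9 against 862 CPM) and the acute phase protein Saa1 (1004 against 11186 CPM). Gasdermin C genes are close copies, so the split among them is uncertain.

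Genes of cholesterol synthesis were highest in cluster 3 of the 14 normal clusters, at a sum of 3168 CPM against 2064 CPM in the other cells, but cluster 14 was close at 3096 CPM. Of the 18 genes, 10 fell from cluster 14 through 3 to 12 (55.6%, against 45.7% of all genes) and 7 were highest in cluster 3 (38.9%, against 20% of all genes). By the 2-fold count only 2 of 18 passed against the other cells, Hmgcs1, which makes the precursor of mevalonate (525 against 258 CPM), and Msmo1, a sterol demethylating enzyme (341 against 169 CPM). Against cluster 12, 12 of 18 were higher and 0 lower, where 27.5% and 10.2% of all genes were. Glycolysis (14 genes) and fat oxidation (17 genes) had 0 members past 2-fold in either direction against the other cells. Of the genes of dissociation stress, which respond to the handling of tissue, 1 of 16 was lower and 0 were higher. Over all genes, 5.14% were at least 2-fold higher than in the other cells and 14% lower, and these small counts are to be read against those shares.

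The 274 normal cells of cluster 3 were not uniform. Ribosomal protein genes took 6.55% of a cell's UMIs in the median cell and 2.63% and 12.9% at the 5th and 95th percentiles, and the mature colonocyte list took 4.41%, 1.89% and 7.83% in that order. Across the 274 cells these shares had a Pearson correlation of -0.83, where the cells share 1 library and shares of the same total constrain each other. The logarithm of depth correlated at 0.11 with the ribosomal share and at -0.17 with the colonocyte share. The interferon list, at a median of 36.1 UMIs per 10000 (13.0 to 103 for the 5th to 95th percentile), correlated at -0.41 with the ribosomal share and at -0.29 with depth.

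The most variable gene after thinning each cell to 5000 UMIs was Car1, with a variance 39.7 times its mean and a range of 1.78 to 186 UMIs per 10000 between the 5th and 95th percentiles. Lypd8, found in all cells at 80.9 to 403 UMIs per 10000 over the same percentiles, was also variable, at 22.4 times its mean. Saa1 and Sycn had medians of 1.67 and 1.77 UMIs per 10000 and 95th percentiles of 63.6 and 62.5, far above the median. Reg3b, second by this ratio with a variance 33.8 times its mean, was held by few cells: 322 of its 485 UMIs (66.4%) came from 1 cell and 444 from 5 cells. Of the 4 cells with 10 or more Reg3b UMIs, 2 also held a Hoxb13 UMI.

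Variable genes fell into sets that went together. Krt20 correlated with Plac8, a small cysteine-rich protein of surface colonocytes, at 0.74 across the 274 cells (0.76 after thinning), and Car4 with Saa1 at 0.71 (0.73). Another set held Tgm3, Ggh and the mitochondrial creatine kinase Ckmt1, with Ggh and Ckmt1 at 0.73 (0.61) and Tgm3 and Ggh at 0.63 (0.56). Another held Car1, the lipid binding protein Fabp2 and Cyp2c55, with Fabp2 and Cyp2c55 at 0.63 (0.55) and Car1 and Fabp2 at 0.53 (0.58). The last 2 sets opposed each other, most strongly Fabp2 and Tgm3 with a correlation of -0.65 (-0.60). The weakest pair across these 2 sets was Car1 and Tgm3, at -0.30 (-0.27). Tgm3 and Ggh were among the genes higher in cluster 3 than in cluster 6 (Tgm3 338 against 4.04 CPM, Ggh 564 against 31.6 CPM), and those of the set with Fabp2 included Car1 and Cyp2c55, higher in cluster 6. A further set was of interferon genes, with Isg15 and Ifit1bl1 at 0.69 (0.62), while Ifi27l2a, the most variable of them, was at 0.11 with Isg15. Isg15 also went with Plac8 at 0.57 (0.47) and Ly6a at 0.56 (0.42). These pairs were chosen for their size, and cells of 1 library are not replicates.

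**Figure D5:**
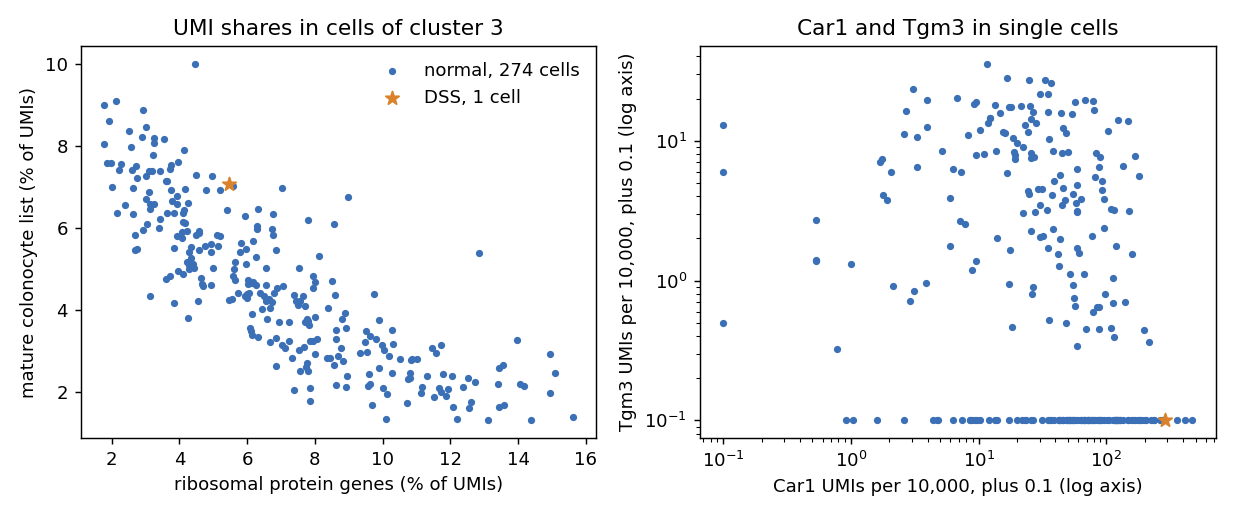
Left, share of UMIs from ribosomal protein genes (horizontal axis, percent) and from the mature colonocyte list (vertical axis, percent); right, Car1 and Tgm3 in UMIs per 10000 plus 0.1 on log axes; each blue point is 1 of 274 normal cells of cluster 3 and the orange star is the 1 DSS cell. On the left the points run downward with a correlation of -0.83, and on the right the DSS cell lies at the high end of Car1 (287 UMIs per 10000) with no Tgm3.

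The DSS side of cluster 3 was a single cell, so its values describe that cell and not the condition. It held 22423 UMIs and 4097 genes with 13.2% mitochondrial UMIs, and 1 UMI in it equals 44.6 CPM. Of 5425 genes counted, 22% were at least 2-fold higher in it than in the summed normal cells and 36.3% at least 2-fold lower, and the median log2 ratio was -0.16. Among weakly expressed genes no UMI in this cell can read as 2-fold lower and 1 UMI as 2-fold higher. These shares therefore depend on the depth of 1 cell and are not read as differences. With a minimum of 50 CPM the balance turned, with 667 of 2680 genes higher and 411 lower. It was colonocyte-like by the same markers, with 624 UMIs of Lypd8, 142 of Krt8, 59 of Guca2a and 42 of Krt20, and a mature colonocyte share of 7.06% that 33 of the 274 normal cells reached or passed. It held 2 UMIs of Ddx3y, 3 of Kdm5d and none of Xist.

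In this cell Reg3b had 422 UMIs, or 188 per 10000, and Reg3g 168 UMIs, both above every normal cell of cluster 3. Car1 had 644 UMIs, a level per 10000 that 3 normal cells reached. The metal-binding protein Mt1 had 179 UMIs, above all normal cells, and the bile acid exporter subunit Slc51a had 11. Its interferon list was at 69.1 UMIs per 10000, above the median of 36.1 in the normal cells, with 36 UMIs of Isg15, a level that 61 normal cells reached. Ifit2, of the same antiviral family as Ifit3, had 15 UMIs and Rsad2, an antiviral enzyme, had 10, and both ranked among the 20 genes highest in this cell against the normal cells. Hoxb13, Aqp4, Sycn, Tgm3, Ano1 and Gsdmc4 had 0 UMIs, as had the interferon-inducible Ifi27l2a and Ifitm3, at 630 and 238 CPM in the normal cells. Set at the 3 counts that a count of 0 allows, Gsdmc4 was at least 11-fold, Sycn at least 9.40-fold and Aqp4 at least 7.40-fold lower than in the summed normal cells, while for Hoxb13 and Ano1 the depth of 1 cell allows little or no difference to be seen. Normal cells of cluster 3 without these genes were also found. Of the 274, 203 held a UMI of Sycn, 242 of Aqp4, 209 of Hoxb13, 165 of Tgm3 and 187 of Ifi27l2a, and the rest had 0. All 20 of the lowest-ranked genes of the cell were at 0 UMIs. By correlation across genes its profile was at 0.750 with cluster 6 of its own library, 0.742 with normal cluster 6 and 0.739 with normal cluster 3, so the highest of these was not with the number it carried.

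The DSS cluster whose profile was nearest to cluster 3 after cluster 6 was cluster 7, at 0.974, with 139 cells, a median of 16334 UMIs and Hoxb13 at 401 CPM. The values stand side by side here, since library, sex, treatment and cluster all differ between them and cannot be told apart. Both were colonocyte-like, with Krt20 at 1269 CPM in normal cluster 3 and 1280 CPM in DSS cluster 7 and Lypd8 at 20107 and 36095 CPM. Across 6766 genes 5.1% were at least 2-fold higher in normal cluster 3 and 5.08% lower, with a median of 0.01. Of 18 counted mature colonocyte genes, 5 were higher and 5 lower.

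Interferon genes were lower in DSS cluster 7 than in normal cluster 3 nearly throughout. Of 24 counted members 21 were at least 2-fold higher in cluster 3 and 0 lower, with a median of 2.19 and sums of 3927 and 638 CPM. Isg15 was at 872 against 47.2 CPM, 18.5-fold (15.2 to 22.7), Bst2 at 404 against 10.5 CPM and Ifi27l2a, a small interferon-inducible protein, at 630 against 1.83 CPM. Phf11b had no UMI in cluster 7. Clusters 1 and 6 held many cells of both libraries and expressed colonocyte genes. In cluster 6 Isg15 was at 115 CPM in normal and 58.9 CPM in DSS cells, and the list summed to 1219 and 951 CPM. In cluster 1 Isg15 was at 33.8 and 13.8 CPM, and the list summed to 858 and 568 CPM. Isg15 differed more between the libraries in other low-Ptprc clusters. In normal and DSS cells it was at 36.6 and 5.54 CPM in cluster 2 and at 36.0 and 3.77 CPM in cluster 5. It was at 52.8 and 3.81 CPM in cluster 13, 431 and 28.0 CPM in cluster 16, and 17.5 and 3.40 CPM in cluster 4. The list sum was also lower in the DSS cells of each of these clusters. The lowest of these Isg15 values rest on few UMIs, and normal cluster 4 had 11 cells. Isg15 was at 872 and 3242 CPM in normal clusters 3 and 12, which were almost absent from the DSS library. The part of their free RNA in the values of the other normal clusters was not tested.

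Antimicrobial and leukocyte-associated genes stood on the other side. Of 10 counted antimicrobial and acute phase genes 8 were at least 2-fold higher in DSS cluster 7 and 0 lower. Saa1 was at 8968 against 1004 CPM and Duox2 at 269 against 20.9 CPM, and the protease inhibitor Slpi at 189 against 1.33 CPM, 143-fold (71.8 to 333). Wfdc18, a secreted protein of the same fold, was at 414 against 1.99 CPM. All 4 counted neutrophil-list genes were higher in cluster 7, among them S100a9, a subunit of calprotectin, at 106 CPM against 0 UMIs in cluster 3, and Aqp8 was at 1212 against 48.3 CPM. S100a9 is a marker of neutrophils, and the part of their free RNA in the DSS values was not tested.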

How the data were processed

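Colonic crypt cells of normal and DSS-treated mice were profiled in 1 droplet library each. Per the labels and the submitters' processing notes the authors ran Cell Ranger 3.0.0 (the matrix headers name 3.1.0) and Seurat 3.1.4, and deposited UMI counts per gene and barcode (31053 genes), a count table of kept cells (23810 genes) and a table of cluster numbers. The UMI counts of kept cells in both deposited forms were the same (0 entries differed). The clustering method, mapping build and any doublet step for the colonic libraries were not given in the sources used here, and gene coordinates come from GENCODE M21 on GRCm38.

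Counts were summed per library and cluster number and expressed as CPM. Ratios are log2 of CPM + 1 over genes with a mean of at least 10 CPM and at least 50 UMIs over both sides. A gene past 2-fold was counted as higher or lower, with no test, since each condition is 1 library. Intervals are exact Poisson, Clopper-Pearson or conditional binomial at 95%. Detection in the other cells was compared after thinning to 5000 UMIs, which kept 242 of 274 cells of cluster 3 and 509 of 639 other cells. It kept 20 of 200 leukocyte-rich cells. Shares set against leukocyte-rich cells are without thinning, at median depths of 22335 UMIs in cluster 3 and 3544 UMIs in those cells. No doublet caller was run; leaving out the 5% of cells with the most UMIs is an alternative. The reference for cluster 3 was the normal cells of clusters in which at most 50% of cells held a Ptprc UMI.

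Named genes are list genes at 10 CPM or more in cluster 3, or at 0 where that checks a label; the 20 highest and 15 lowest against the other cells by the weaker of both libraries with at least 50 UMIs; and the 20 highest and lowest of DSS over normal. Since the DSS side is 1 cell, only 42 genes could enter the ranking of higher genes, which Guca2a, Lypd8, Muc3 and Plac8 led. Reg4 and Muc2 headed the separate ranking of lower genes, where the UMI minimum applied to the other cells. The normal library was therefore also ranked by itself, a choice made once values were known. The other comparison clusters and the genes contrasted with them were also chosen after their values were seen. The members and lists were chosen with earlier results of these data known. The counting steps were tested on simulated counts. All columns of values were mapped (0 left over). Python 3.11.15, numpy 2.4.6, scipy 1.17.1, pandas 2.3.3 and matplotlib 3.10.9 were used. A few genes are not reported here.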

Additional observations from a re-analysis of the deposited data

How the results depend on the processing

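No paired analysis was possible because each condition is 1 library. The 375 genes higher and 1021 lower in cluster 3 than in the other cells became 215 and 283 with a minimum of 50 CPM, and 734 and 636 with median-of-ratios scaling. The higher count was 232 of 7261 (3.20%) from the mean of per-cell CPM. The lower count was 620 of 7302 (8.49%) with a pseudocount of 10 CPM. It was 2344 of 11293 (20.8%) with a minimum of 1 CPM and no UMI minimum. For the 1 DSS cell against the normal cells of cluster 3, 1196 of 5425 genes were higher and 1970 lower, counts that depend on the depth of 1 cell. With a minimum of 50 CPM these were 667 and 411 of 2680 genes. The higher genes were 591 of 5822 with median-of-ratios scaling and 597 of 3073 after thinning. The lower genes were 5793 of 9581 with a minimum of 1 CPM and no UMI minimum. The normal share of 24.2% was 30.0% within low-Ptprc clusters, 29.3% among cells with at least 1500 genes and 29.2% among cells without a Ptprc UMI, and the DSS share stayed at or below 0.0714%. Of 308 alternative medians over 26 lists, 283 moved little, 24 moved and 1 reversed: the distal Hox median, 1.05 on 3 genes, was -1.59 on 7 genes with a minimum of 1 CPM and no UMI minimum, changed together. The mature colonocyte median of 1.44 was 0.80 per cell, 0.83 after thinning and 2.09 without cluster 12 among the other cells, which moved by more than 1.5 times, and the Notch pathway median of -0.74 was -1.51 after thinning. For DSS against normal within cluster 3 only the counts of genes were rerun under other settings. Those foreseen for its named genes and list medians were not run, the DSS side being 1 cell. Precision is limited by 1 library a condition, and no interval here covers variation between mice.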

Other observations

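Other gene groups of cluster 3 had values beyond the comparisons above. Of 7 counted Notch pathway genes 3 were at least 2-fold lower than in the other cells, with a median log2 ratio of -0.74 (-1.51 on 6 genes after thinning to 5000 UMIs), and of 4 counted Wnt targets 3 were lower. Of 10 counted YAP and TAZ targets, genes tied to gut regeneration, 2 were higher and 2 lower with a median of -0.17. Tight junctions differed by member: Cldn8, a claudin of the distal colon that seals against sodium leak, was at 106 CPM against 43.1 CPM, while the crypt claudins Cldn2 (2.32 against 100 CPM) and Cldn15 (31.0 against 196 CPM) were lower. Of 21 counted genes of glutathione and xenobiotic metabolism 1 was higher and 3 lower than in the other cells, near the 5.14% and 14% of all genes; 12 were higher and 1 lower than in cluster 12, where 27.5% and 10.2% of all genes were.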
